A study of Mus musculus with 36 samples.

Results

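A set of 10 genes of the transition from G1 to S phase were followed across hepatocyte cultures that expressed glucokinase regulatory protein (GKRP), glucokinase (GK) or both. They were the E2F transcription factors E2f1, E2f2, E2f3, E2f7 and E2f8, the cyclins Ccnd1, Ccne1 and Ccne2, the kinase Cdk2 and the pocket protein Rbl1, and they were 10 of the 52230 genes to which reads were summed. They were chosen by name from their reads scaled to the size of the library (CPM) across the 10 conditions of the study. Their own differences between conditions are therefore given with standard errors and intervals, and which of them were called in the fit over all genes is given as a description.

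Hepatocytes were isolated from 3 female mice of the strain GCKR-P446L-EMI-B6N, aged 14 wk, which carry the GKRP substitution of proline by leucine at residue 446. Mice 1 and 2 carried the genotype labelled Gckr-446L and mouse 3 the genotype labelled Gckr-446P/L, and the study calls the cells GKRP-deficient. The study's methods describe such donors as homozygous for 446L, which differs from the label of mouse 3, and the labels were followed. The cells of each mouse were left untreated (UN) or received an adenoviral vector for human GKRP-446P (hP), human GKRP-446L (hL), mouse GKRP-446P (mP) or mouse GKRP-446L (mL), each at endogenous GK or together with a vector that overexpressed GK, and 1 further group received the GK vector alone (GK). All cultures were kept for 24 h at 5 mM glucose, with 10 nM insulin and 10 nM dexamethasone in the culture medium, and then for 4 h at 25 mM glucose before RNA was taken. The 36 cultures comprised 6 untreated, 6 with GK alone and 3 of each other condition. The pairs of cultures of 1 mouse in the untreated and GK groups were summed, which gave 30 samples with 3 mice per condition. No group received a vector without an insert, so that against untreated cells the expression of GKRP and the receipt of a vector cannot be told apart. Cells with GK alone also received a vector, at a titre that the study set separately for GK.

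GKRP binds GK and holds it in the nucleus of hepatocytes at low glucose. Adult hepatocytes are largely quiescent and can re-enter the cell cycle, as in liver regeneration. In quiescent cells the pocket proteins, which are the retinoblastoma protein RB and its relatives p107 (encoded by Rbl1) and p130, bind E2F factors and keep E2F target genes silent. Cyclin D with its kinases, followed by cyclin E with Cdk2, phosphorylates the pocket proteins and releases the E2F activators, and the targets then transcribed include the genes of DNA replication as well as several E2F and cyclin genes themselves. E2f7 and E2f8 encode atypical E2F factors that repress these targets again, and both are known for their part in the polyploidy of hepatocytes.

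Several of the 10 genes are known targets of E2F factors, and the letters around their transcript starts are shown for that reason. The search covered 250 bases before and 50 bases from the start of the transcript with the most reads of each gene, in GRCm39, and is given for 9 of the 10 genes, without E2f8. The E2F octamers TTTCCCGC, TTTCGCGC, TTTGCCGC and TTTGGCGC were searched on both strands. An octamer was found at 5 of the 9 genes (55.6%), which were E2f1, E2f2, E2f7, Cdk2 and Rbl1, against 453 of 12160 genes tested with such a window (3.73%). The 4 sites that lie in an annotated untranslated region are shown as 30 bases each, with the octamers in capitals. E2f1 held a pair of octamers on chromosome 2 (chr2:154411783-154411812, minus strand), from base -172 to base -143 of the start of E2f1-201, and the first base of this site is the start of the longer transcript E2f1-202. The site of E2f2 (chr4:135899605-135899634, plus strand) lies at bases 21 to 50 of E2f2-201. That of Cdk2 (chr10:128541042-128541071, minus strand) lies at bases -108 to -79 of Cdk2-201, where the annotation also places a transcript of Pmel. That of Rbl1 (chr2:157046454-157046483, minus strand) spans the start of Rbl1-201, from base -8 to base 22.
E2f1: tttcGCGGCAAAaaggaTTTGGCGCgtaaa
E2f2: cgaatttggcggcatatagTTTGGCGCtaa
Cdk2: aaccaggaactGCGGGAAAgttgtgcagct
Rbl1: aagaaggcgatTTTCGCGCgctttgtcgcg

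For the atypical factor E2f7 the 250 bases before the start are shown. The window of E2f7-201 (chr10:110581056-110581305, plus strand) held 1 octamer and, further upstream, 1 more match to the shorter E2F core GCGGGAA, both in capitals. That core also lies within the octamer TTTCCCGC read on the other strand, so that the searches overlap.
E2f7: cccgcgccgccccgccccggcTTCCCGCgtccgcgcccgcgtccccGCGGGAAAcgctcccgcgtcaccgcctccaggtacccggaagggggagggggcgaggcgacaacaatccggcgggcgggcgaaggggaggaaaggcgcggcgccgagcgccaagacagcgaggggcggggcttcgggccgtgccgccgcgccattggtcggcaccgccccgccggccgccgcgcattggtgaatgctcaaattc

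Both cyclin E genes, Ccnd1 and the most-read transcript of E2f3 (E2f3-203) had no octamer in this window, which says only that these letters are not in it. The less-read upstream transcript E2f3-201 (chr13:30170047-30170296, minus strand) did have 1, shown here in capitals within the 250 bases before its start. It was chosen after the values were seen, because E2f3 differed little between conditions.
E2f3: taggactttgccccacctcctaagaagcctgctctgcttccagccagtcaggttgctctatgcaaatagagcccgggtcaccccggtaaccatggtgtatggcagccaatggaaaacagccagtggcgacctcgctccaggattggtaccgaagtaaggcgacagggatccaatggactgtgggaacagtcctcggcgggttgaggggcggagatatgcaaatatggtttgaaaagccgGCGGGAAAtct

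The E2F core was found at 2 of the 9 genes (22.2%) and at 7.31% of all genes tested. The CCAAT box, which the factor NF-Y binds, was found at 4 of the 9 genes and at 39.3% of all. The CHR element TTTGAA, to which the MuvB complex binds at genes of G2 and mitosis, was found at none of the 9 and at 14.2% of all. The windows of the 9 genes were rich in G and C, with a median of 75.0% against 57.3% over all genes tested. A match is a description of letters and not of a bound site.

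**Figure D1:**
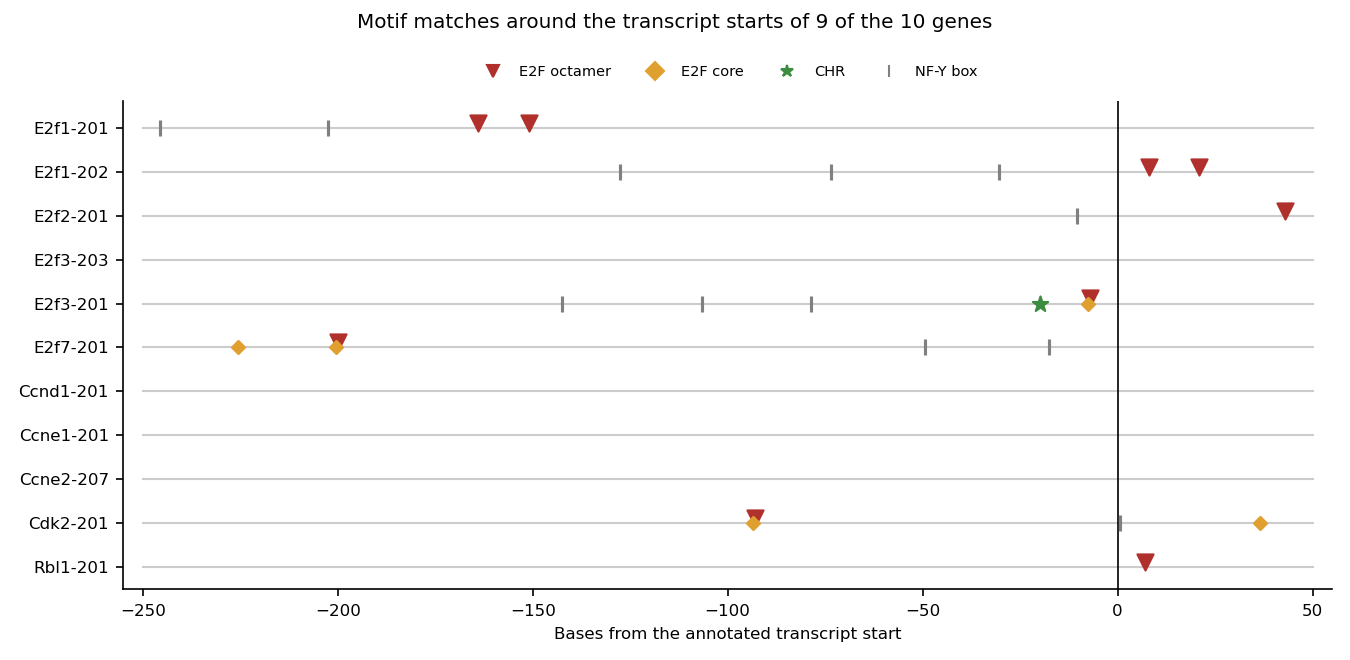
Matches to 4 motifs, drawn by the distance of their centre from the annotated transcript start in bases, with 1 line per transcript of 9 of the 10 genes. E2F octamers lie upstream of the starts of E2f1-201, E2f7-201, Cdk2-201 and E2f3-201, and just downstream of those of E2f1-202, E2f2-201 and Rbl1-201.

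The 36 libraries held between 3924674 and 10046158 reads (median 5980276), and 12176 genes passed the filter on low counts, the 10 genes among them. Hepatocyte markers were abundant in every sample, with a summed level of 73635 to 139505 CPM over 10 genes. Markers of macrophages (219 to 328 CPM over 10 genes), endothelial cells (50.5 to 113 over 6), stellate cells and fibroblasts (9.19 to 145 over 7) and cholangiocytes (15.4 to 245 over 5) were lower, and no gene of these lists was at 0 throughout. None of these lists, nor a list of 10 interferon response genes (184 to 596 CPM), had a gene called in edgeR's quasi-likelihood test in the comparison of GKRP vectors with untreated cells, and none had a gene with an unadjusted p under 0.05 there. Mouse Gckr lay between 37.1 and 72.0 CPM in untreated cultures and between 8934 and 23274 with the mouse vectors, whereas the human transcript is not in the reference used. With GK alone it lay between 51.8 and 1462 CPM, the highest value coming from 1 culture of mouse 3. In these bulk samples, more cells in the cell cycle and more RNA per cell cannot be told apart.

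Hepatocytes that received a GKRP vector held more RNA of both cyclin E genes, Cdk2, Rbl1, E2f1 and E2f8 than untreated cells of the same experiment. The rise was about 7-fold for the cyclin E genes, 5.23-fold for E2f8 and 2.47- to 3.18-fold for the other 3. It was present with each of the 4 GKRP vectors and both at endogenous and at overexpressed GK. For E2f8 and Cdk2 it was 0.10 and 0.47 on the log2 scale, and not called, once counts were corrected for transcript length. With that correction the cyclin E genes were still called over the 4 vectors against untreated cells. They were not called for any single vector or with GK against GK alone. E2f3 and Ccnd1 did not follow this pattern. E2f7, with few reads, was above untreated cells of the same mouse in 12 of 12 samples and was called when the mouse was a term in the model. With GK against GK alone it was higher in 11 of 12 and was not called with that term. The groups overlapped in both E2f7 and E2f2. None of the 10 genes was called with GK alone.

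E2f1, an activator of replication genes, had 2.28, 3.82 and 3.13 CPM in untreated cells of mice 1, 2 and 3, and 2.72, 3.13 and 3.04 CPM with GK alone. In the 12 samples with a GKRP vector at endogenous GK it ranged from 6.11 to 16.3 CPM (median 9.61), and in the 12 with GK as well from 7.92 to 14.7 (median 10.3). Every sample with a GKRP vector thus lay above every sample without one. Against untreated cells its level was 3.18-fold higher, with a 95% interval of 2.20 to 4.59, which is 1.67 ± 0.26 on the log2 scale (SE, 3 mice per condition). The log2 ratio to the same mouse was smaller in mouse 2 (0.82) than in mice 1 and 3 (1.84 and 1.88), and mouse 2 had the highest untreated level.

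E2f2, another activator, was low throughout, with 2 to 18 reads per culture. It had 0.495, 0.600 and 0.820 CPM in untreated cells, 0.545, 0.581 and 0.719 with GK alone, 0.611 to 2.92 (median 0.771) with a GKRP vector and 0.340 to 3.22 (median 0.971) with a GKRP vector and GK. The groups overlapped. The log2 difference was 0.74 ± 0.50 (SE) against untreated cells, and in mouse 3 the level passed 2 CPM in the hP, mP, GK+mP and GK+mL samples. Of the single vectors, hP against untreated cells (1.60, 95% interval 0.36 to 2.83) and GK+mP against GK alone (1.60, 0.35 to 2.85) had intervals above 0. Neither was called, and GK+mP was called with the mouse as a term.

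E2f3, the third activator, was the most even of the 10 genes. It had 20.1, 16.6 and 18.9 CPM in untreated cells, 19.7, 19.5 and 17.3 with GK alone, 17.4 to 23.7 (median 19.7) with a GKRP vector and 14.6 to 21.8 (median 18.1) with both. The groups overlapped. Its log2 difference against untreated cells was 0.08 ± 0.10 (SE), with a 95% interval from -0.13 to 0.30, and with GK against GK alone it was -0.07 ± 0.10. Cultures held 77 to 183 reads of E2f3, compared with 9 to 95 of E2f1.

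Of the atypical repressors, E2f8 had 3.27, 2.85 and 0.820 CPM in untreated cells and 1.82, 2.69 and 1.76 with GK alone. It ranged from 6.25 to 15.98 CPM (median 13.6) with a GKRP vector and from 5.19 to 15.3 (median 10.6) with a GKRP vector and GK. No sample with a GKRP vector fell among those without one, although the samples of mouse 2 were the lowest of their condition in each of the 8 conditions with a GKRP vector. The level was 5.23-fold that of untreated cells (95% interval 2.95 to 9.27), or 2.39 ± 0.40 on the log2 scale. With counts corrected for effective transcript length the difference was 0.10 and was not called. The untreated sample of mouse 3 was the lowest of all, and its log2 ratio was the largest of the mice (3.37, against 2.07 in mouse 1 and 1.28 in mouse 2).

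E2f7, the partner of E2f8 in repression, was covered by 0 to 16 reads per culture. It had 0.693, 0.150 and 0.149 CPM in untreated cells, 1.09, 0.145 and 0.240 with GK alone, 0.183 to 2.29 (median 1.01) with a GKRP vector and 0.323 to 2.04 (median 1.11) with both. The groups overlapped, but the mice differed, and the level was above that of the untreated sample of the same mouse in 12 of 12 samples. The log2 difference of 1.83 ± 0.73 was not called. It was called when the mouse was a term in the model, although of the single vectors only with mP. With GK against GK alone the level was higher in 11 of 12 samples and was not called with that term. How many of all genes showed such counts within the mice is not given.

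The pocket protein gene Rbl1 is itself an E2F target whose product restrains E2F factors. It had 5.05, 4.42 and 5.96 CPM in untreated cells and 4.63, 4.36 and 6.07 with GK alone. With a GKRP vector it ranged from 12.02 to 20.4 CPM (median 14.9), and with GK as well from 12.2 to 21.3 (median 15.5). The samples with and without a GKRP vector did not overlap. Rbl1 was 3.02-fold higher than in untreated cells (95% interval 2.25 to 4.05; log2 1.59 ± 0.20), and the mice were alike, with log2 ratios of 1.50, 1.44 and 1.56.

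The cyclin E genes moved most. Ccne1, a cyclin that activates Cdk2 at the entry to S phase, had 2.97, 1.27 and 2.76 CPM in untreated cells and 2.90, 2.62 and 4.31 with GK alone. It ranged from 6.60 to 25.2 CPM (median 19.7) with a GKRP vector and from 6.95 to 40.0 (median 18.8) with GK as well. The highest sample was GK+mP of mouse 1, and mouse 2 was the lowest of every condition. The level was 7.38-fold that of untreated cells, but the interval was wide (95%, 3.30 to 16.5; log2 2.88 ± 0.56).

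Ccne2, the other cyclin E gene, had 2.57, 3.90 and 2.09 CPM in untreated cells and 2.72, 5.01 and 4.39 with GK alone. It ranged from 11.2 to 35.1 CPM (median 21.6) with a GKRP vector and from 14.1 to 33.9 (median 21.2) with GK as well, so that the lowest sample with a GKRP vector was still above the highest without. The difference of 2.92 ± 0.33 on the log2 scale was 7.56-fold (95% interval 4.67 to 12.3). The order of the mice differed from that of Ccne1, as mouse 3 had the highest Ccne2 level in 6 of the 8 conditions with a GKRP vector.

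Cdk2, the kinase that cyclin E activates, had 14.9, 13.6 and 15.8 CPM in untreated cells and 17.7, 14.8 and 18.0 with GK alone. It ranged from 26.4 to 45.6 CPM (median 37.3) with a GKRP vector and from 25.9 to 47.0 (median 36.8) with GK as well. The samples with and without a GKRP vector did not overlap. The level was 2.47-fold that of untreated cells (95% interval 1.99 to 3.06; log2 1.31 ± 0.15), and the log2 ratios of the mice were 1.34, 1.12 and 1.34. Corrected for effective transcript length, the log2 difference was 0.47 and was not called.

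Ccnd1, which encodes the D-type cyclin that answers to growth signals, did not share the rise. It had 36.9, 7.80 and 15.2 CPM in untreated cells and 34.8, 11.6 and 26.2 with GK alone. It ranged from 8.26 to 22.8 CPM (median 18.8) with a GKRP vector and from 7.92 to 25.3 (median 17.6) with both. The untreated samples differed more between mice than the conditions did. The log2 difference was -0.24 ± 0.42 against untreated cells and -0.53 ± 0.41 with GK against GK alone, and neither was called, although with GK the level was below that of GK alone of the same mouse in 12 of 12 samples.

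**Figure D2:**
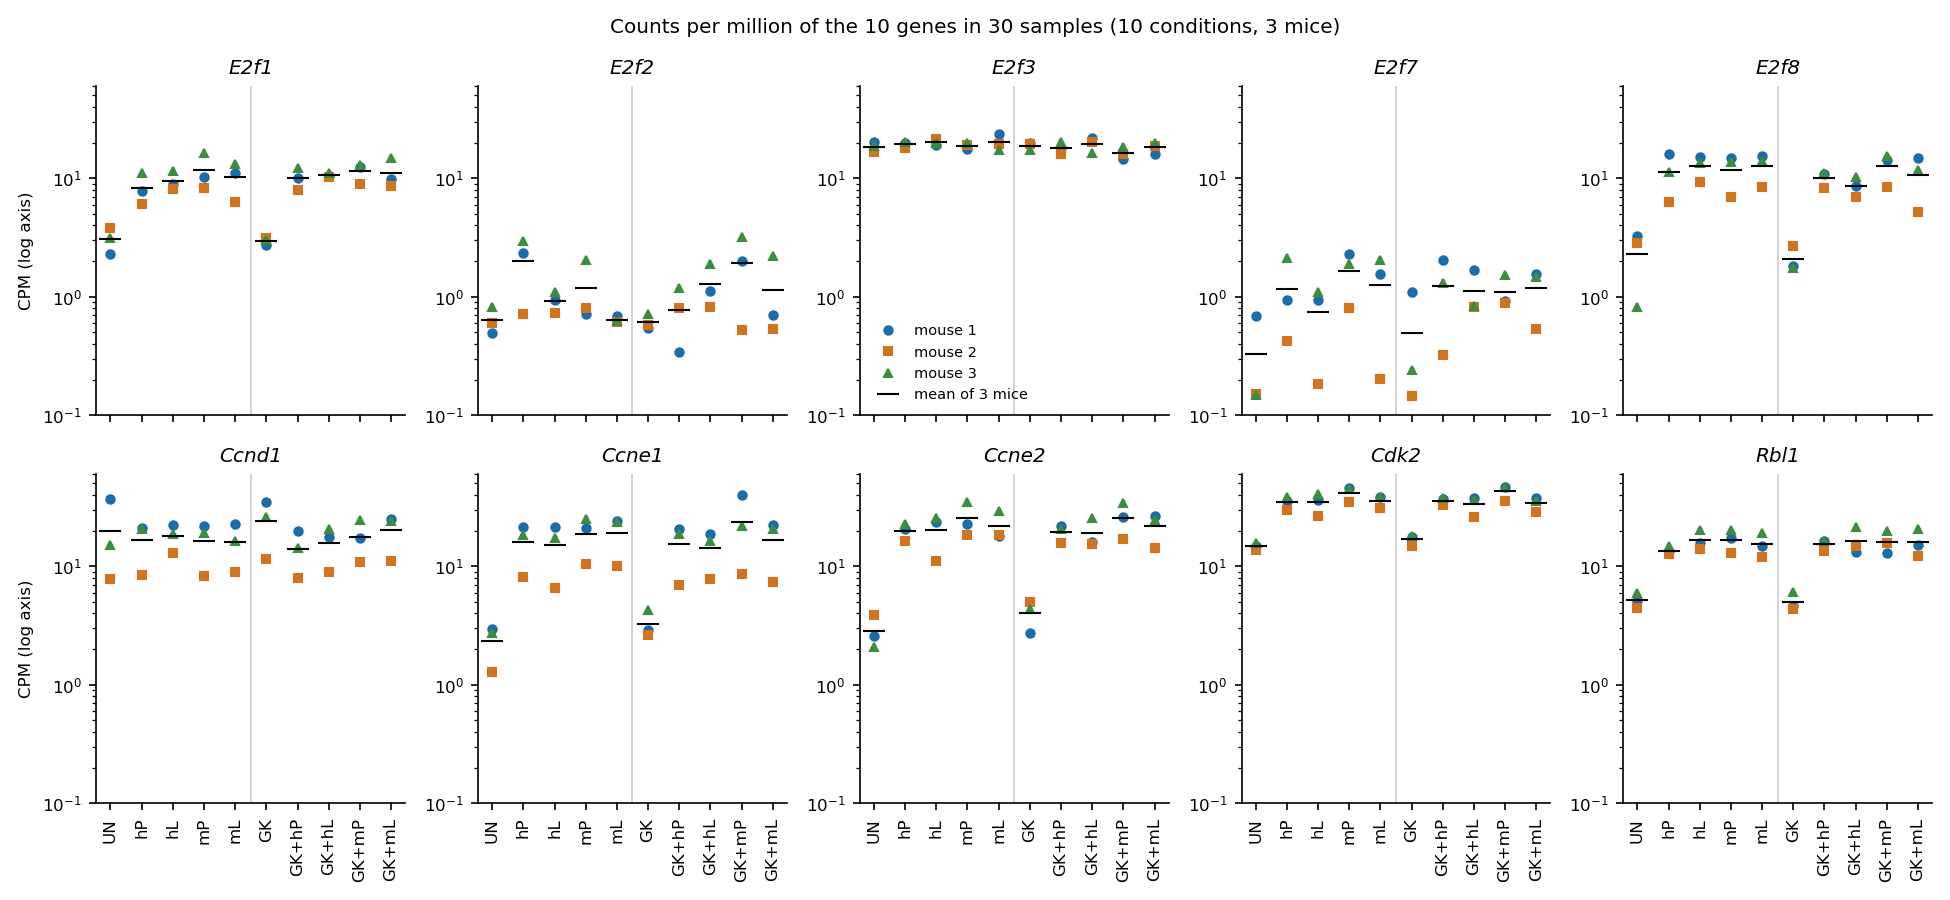
CPM of each of the 10 genes on a log axis in the 30 samples, with conditions on the horizontal axis, 1 symbol per mouse and a bar at the mean of 3 mice. In E2f1, E2f8, Ccne1, Ccne2, Cdk2 and Rbl1 the untreated and GK samples lie below the 8 conditions with a GKRP vector, whereas E2f3 is level.

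Levels of different genes are compared only per transcript length, as TPM, which scales reads to transcript length and library size (mean of 3 mice). In untreated cells Cdk2 was highest at 15.2 TPM, but with an SD of 11.2 it was not set apart from Ccnd1 at 5.22 ± 3.85. E2f8 (2.77, SD 4.06), E2f3 (2.59), Ccne1 (2.58) and Ccne2 (2.55) were closer together than their spread. Rbl1 (0.881), E2f1 (0.719), E2f2 (0.500) and E2f7 (0.105) were below 1 TPM. With a GKRP vector the order was Cdk2 (22.1 ± 3.68), Ccne2 (22.1 ± 7.09) and Ccne1 (13.8 ± 6.00), with Ccnd1 at 5.29 ± 1.91. E2f3 (3.60), E2f1 (3.29), E2f8 (3.28) and Rbl1 (3.04) then lay within 1 SD of each other, and E2f2 (0.265) and E2f7 (0.240) remained the lowest. The cyclin E genes thus passed Ccnd1 in mean TPM when a GKRP vector was present. This order rests on effective lengths that varied between samples. With a GKRP vector they spanned 333 to 1577 bases for Ccne2, 497 to 1252 for Ccne1 and 1220 to 3440 for Ccnd1. E2f2 was lower in mean TPM than in untreated cells but higher in mean CPM (1.19 against 0.638).

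Counted over the 10 genes, 6 were called higher with the GKRP vectors than in untreated cells by edgeR's quasi-likelihood test, where 1.50% of all genes tested were called higher. The 6 were Ccne1, Ccne2, Cdk2, E2f1, E2f8 and Rbl1, and none was called lower (0.411% of all genes). A call needed an adjusted p under 0.05 and a fold change of at least 1.3. The median log2 difference of the 10 genes was 1.63, and that of all genes tested was -0.00. These calls used the contrast by which the genes were chosen and are given as a description. For these 6 genes every one of the 24 samples with a GKRP vector lay above all 6 samples without one, a separation that held for 0.821% of all genes tested. Among the samples at endogenous GK, all 12 with a GKRP vector lay above the 3 untreated ones in the same 6 genes, as in 1.95% of all genes tested. Without mouse 1 the calls of E2f1 and Ccne1 were lost, and without mouse 3 those of E2f1, E2f8 and Ccne1, which left 4 and 3 genes called, while without mouse 2 all 6 remained.

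Against untreated cells, the calls of E2f8 and Cdk2 also depended on how transcript length was handled. When counts were corrected for the effective length that Salmon gave each gene in each sample, the log2 difference of E2f8 was 0.10 and that of Cdk2 was 0.47, and 4 genes were called (Ccne1, Ccne2, E2f1 and Rbl1). The effective length of E2f8 spanned 176 to 3484 bases among untreated samples, which held 3 to 21 reads of E2f8 per culture. That of Cdk2 spanned 444 to 1337 bases there and 776 to 1802 bases with a GKRP vector at endogenous GK. Those of E2f1 (1895 to 2542) and Rbl1 (2456 to 4416), over the samples of all conditions, were steadier. Their log2 differences with the correction were 1.88 and 1.68.

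**Figure D3:**
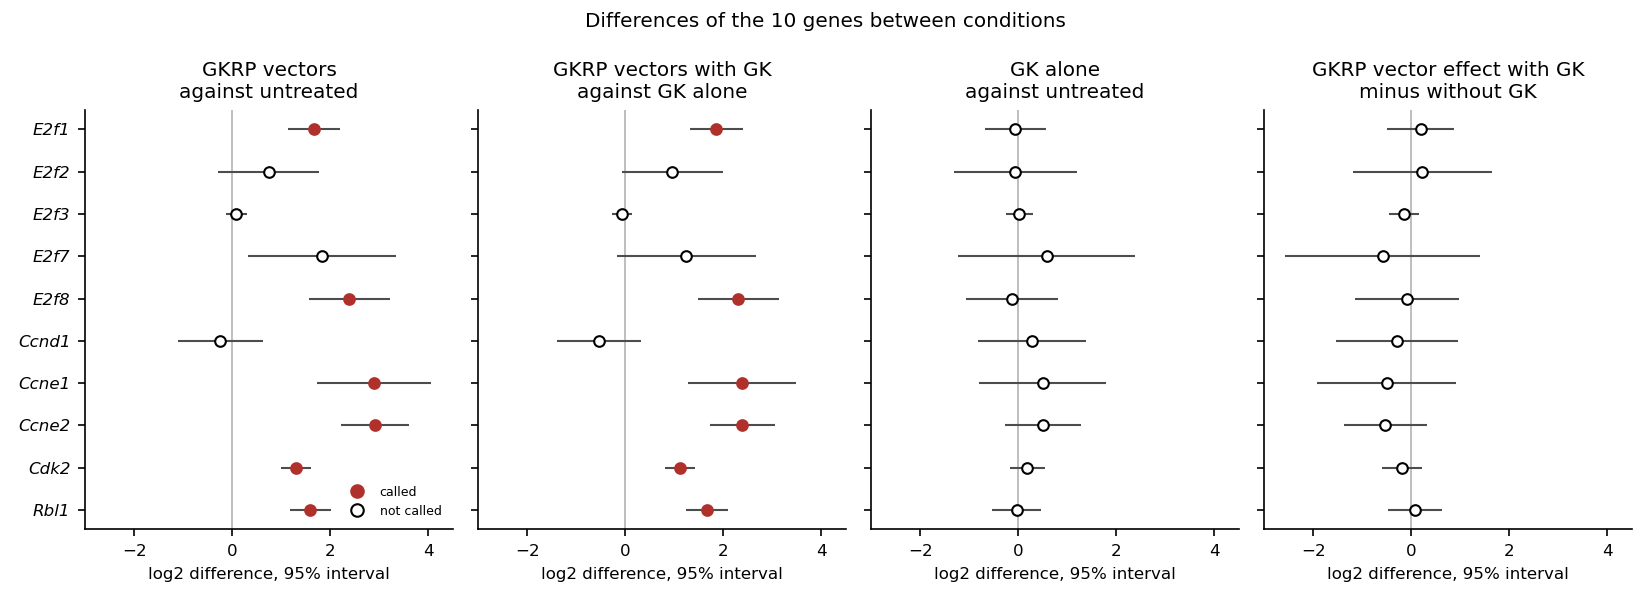
Log2 difference of each of the 10 genes in 4 comparisons, with 95% intervals on the horizontal axis and filled points for genes called by edgeR. The same 6 genes are filled for GKRP vectors against untreated cells and for GKRP vectors with GK against GK alone, and no gene is filled in the other 2 comparisons.

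Each GKRP vector was next compared on its own with the same untreated samples. The same 6 genes were called higher in each comparison, where 0.690% (hP), 0.805% (hL), 1.00% (mP) and 0.895% (mL) of all genes tested were. Cdk2 was at 34.6 ± 4.55 CPM (hP), 34.5 ± 7.38 (hL), 41.8 ± 6.07 (mP) and 35.9 ± 4.43 (mL; SD, n = 3). Ccne2 had 19.9 ± 3.25, 20.1 ± 7.83, 25.4 ± 8.72 and 21.9 ± 6.26 CPM in the same order, and Ccne1 had 16.1 ± 7.07, 15.2 ± 7.71, 18.9 ± 7.54 and 19.2 ± 7.96. E2f1 was lowest with hP (8.30 ± 2.51 CPM) and highest with mP (11.6 ± 4.17), and E2f8 lay between 11.2 (hP) and 12.6 (hL). E2f2 was less even, with 1.99 ± 1.15 CPM (hP), 0.920 ± 0.179 (hL), 1.19 ± 0.748 (mP) and 0.640 ± 0.0403 (mL). The single-vector calls were weak against the loss of a mouse. Without mouse 1, 0 to 2 of the 10 genes were called with a single vector, and without mouse 3, 1 to 3.

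The question whether the substitution at residue 446 or the species of GKRP altered these genes was then put to the model. For human GKRP-446L against 446P the log2 differences of the 10 genes ranged from -0.36 (E2f7) to 0.19 (Rbl1). None of the 10 was called there by edgeR or DESeq2, and 0.00% of all genes tested were called by edgeR. The 95% intervals reached from -0.31 to 0.20 for Cdk2, from -0.51 to 0.49 for Ccne2 and from -0.15 to 0.53 for Rbl1, and with those of E2f1 and E2f3 they left out a change of more than 1.5-fold. Those of the other 5 genes did not, with -0.94 to 0.74 for Ccne1, -0.67 to 0.96 for Ccnd1 and -0.65 to 0.60 for E2f8. For mouse GKRP-446L against 446P all but Ccnd1 and E2f3 had log2 differences below 0, from -0.07 (Rbl1) to -0.80 (E2f2). That of Cdk2 was -0.28 ± 0.12 (95% interval from -0.53 to -0.03), and none of the 10 was called by edgeR or DESeq2, again with 0.00% of all genes called by edgeR. Within each mouse Cdk2 was lower with mL than with mP (38.1, 30.8 and 38.7 against 45.6, 34.8 and 45.1 CPM in mice 1, 2 and 3). With GK it was lower too (38.0, 28.8 and 35.5 against 47.0, 35.5 and 46.8 CPM). Cdk2 was the only 1 of the 10 with an unadjusted p under 0.05 in edgeR's test there. Of the 12176 genes tested, 142 were higher and 143 lower at that limit. How many of all genes kept 1 order within each mouse is not given, and the order in Cdk2 is a description. None of the 10 was called with the mouse as a term either. The mouse vectors against the human ones gave log2 differences from -0.07 (E2f3) to 0.35 (Ccne1), with Ccne2 at 0.26 ± 0.17 and Cdk2 at 0.16 ± 0.09. None of the 10 was called, and 0.00821% of all genes tested were called.

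GK overexpression alone was compared with untreated cells. The study set the titre of the GK vector empirically, by the rise in GK, and apart from that of the GKRP vectors. The dose of vector was thus not matched, and whether the receipt of a vector changed these genes was not tested. None of the 10 genes was called by edgeR or DESeq2. Over all genes tested 0.00821% were called, with 137 genes higher and 113 lower at an unadjusted p under 0.05. The log2 differences ran from -0.13 ± 0.45 (E2f8) to 0.58 ± 0.86 (E2f7). Those of the genes that rose with GKRP were -0.06 ± 0.30 for E2f1, -0.04 ± 0.24 for Rbl1, 0.19 ± 0.17 for Cdk2, 0.50 ± 0.37 for Ccne2 and 0.50 ± 0.62 for Ccne1. The upper ends of their 95% intervals were 0.56, 0.46, 0.54, 1.27 and 1.79, so that for both cyclin E genes a rise of more than 2-fold lay within the interval. Within the mice, Ccne2 and Cdk2 were higher with GK alone than untreated in 3 of 3, and the other 8 genes in 1 or 2 of 3. In none of the 10 did all 3 GK samples lie above all 3 untreated ones, a separation that 3.04% of all genes tested showed. The untreated samples were the controls of the GKRP comparison too. Without the GK culture of mouse 3 that held 1462 CPM of Gckr, none of the 10 genes was called with GK alone either.

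With GK overexpressed, the GKRP vectors were compared with GK alone. The same 6 genes were called higher, where 1.09% of all genes tested were, and the median log2 difference of the 10 was 1.46 against 0.01 over all genes. Ccne2 rose by 2.38 ± 0.32 on the log2 scale, Ccne1 by 2.38 ± 0.53, E2f8 by 2.30 ± 0.40, E2f1 by 1.85 ± 0.26, Rbl1 by 1.67 ± 0.20 and Cdk2 by 1.11 ± 0.15. E2f7 (1.24 ± 0.68) and E2f2 (0.96 ± 0.50) were not called. In the 6 genes all 12 samples lay above the 3 with GK alone, as did 1.61% of all genes tested. Without mouse 1, 4 genes were called (Ccne2, Cdk2, E2f1 and Rbl1), without mouse 3, 3 were (Ccne2, E2f1 and Rbl1), and with the correction for effective length 2 were (E2f1 and Rbl1). For single vectors GK+mP gave all 6 (1.02% of all genes called higher), whereas GK+hP, GK+hL and GK+mL gave 5, without Ccne1 (0.632%, 0.468% and 0.558% of all genes). With the mouse as a term all 3 of these gave 6. With the length correction GK+hP gave 1 and the others 0, and without mouse 1 GK+mP gave 2 and the others 0.

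The difference between the responses to GKRP at overexpressed and at endogenous GK was fitted as an interaction, and is a description for these genes because their levels in the same conditions chose them. It was called for none of the 10 by edgeR or DESeq2, and 0.00% of all genes tested were called by edgeR. The log2 interaction lay between -0.58 ± 0.95 (E2f7) and 0.22 ± 0.68 (E2f2), with -0.53 ± 0.40 for Ccne2, -0.50 ± 0.68 for Ccne1, -0.19 ± 0.19 for Cdk2 and 0.08 ± 0.26 for Rbl1. The intervals were wide for the cyclin E genes (from -1.38 to 0.31 for Ccne2). Directly compared, samples with GKRP and GK differed from those with GKRP by -0.21 (E2f8) to 0.16 (E2f2) on the log2 scale, none of the 10 being called, where 0.0164% of all genes were called.

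The study also set GK alone against the 5 combined groups of endogenous GK, of which 4 contain a GKRP vector. DESeq2, the tool that the study used, called 6 of the 10 genes lower here. None of the 10 was called lower by edgeR, where 0.0411% of all genes tested were. The log2 differences were -2.25 ± 0.58 for E2f8, -2.13 ± 0.60 for Ccne2, -2.11 ± 0.71 for Ccne1, -1.51 ± 0.40 for E2f1, -1.42 ± 0.36 for Rbl1 and -0.94 ± 0.28 for Cdk2. With the mouse as a term 3 were called (E2f1, E2f8 and Rbl1). Against untreated cells alone the same 6 genes differed by -0.13 to 0.50, as given above.

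The targets of these factors were read from lists that were written with earlier results of these data known. Of 32 E2F targets of DNA synthesis, all tested, 23 were called higher with the GKRP vectors than in untreated cells and none lower. Over all genes tested 1.50% were called higher and 0.411% lower. The median log2 difference of the 32 was 1.24, and all 32 differences were above 0. Chaf1b, a subunit of the chromatin assembly factor, rose from 6.15 to 31.4 CPM (log2 2.35 ± 0.17, edgeR adjusted p = 6.22e-09). The replicative helicase subunits Mcm6 (72.8 to 211 CPM, 1.53 ± 0.12, adjusted p = 1.73e-08), Mcm3 (17.1 to 71.5 CPM, 2.06 ± 0.17, adjusted p = 4.04e-08) and Mcm4 (11.3 to 63.5 CPM, 2.48 ± 0.23, adjusted p = 2.90e-07) rose too. Chek1, the kinase of the replication checkpoint, rose most of the list, from 0.722 to 8.98 CPM (3.59 ± 0.39, adjusted p = 5.73e-06). Not every target did: Rrm2 (0.06), Rfc4 (0.13), Tk1 (0.51) and Cdc6 (0.53) were not called. With GK against GK alone 22 of the 32 were called higher (median 1.13), as were 1.09% of all genes tested. With GK alone against untreated cells none was called by edgeR (median 0.18), but 24 of the 32 differences were above 0. Of the 32, 4 were higher with an unadjusted p under 0.05 in edgeR's test and none lower, as were 137 of the 12176 genes tested higher. The list without mouse 1 held 13 called genes and without mouse 3 it held 7. Counts over all genes with 1 mouse left out are given below.

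Genes of G2 and mitosis, which the cycle reaches later, were low. Of 18 listed, 13 did not pass the filter. Against 1.50% of all genes tested, 1 of the 5 tested was called higher. That was Cdk1, the mitotic kinase and also an E2F target, at 0.580 CPM in untreated cells and 2.93 with the GKRP vectors (log2 2.30 ± 0.61, adjusted p = 0.0469), and its call was lost without mouse 1, without mouse 3, without the filter on low counts, with a transcript length offset and without the second culture of the untreated and GK groups. With GK against GK alone it was 1.80 ± 0.57 (adjusted p = 0.137) and was called by DESeq2 and with the mouse as a term. Mki67, a marker of cycling cells, had 1.63 and 1.65 CPM, and Top2a (1.44 ± 0.82), Aurka (-0.55 ± 0.41) and Tpx2 (-0.36 ± 0.40) were not called either.

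Of 14 other genes of the E2F and pocket protein families 13 were tested, and 1 was called higher with the GKRP vectors (1.50% of all genes). Without adjustment 6 of the 13 had a p under 0.05 and were higher, as did 650 of the 12176 genes tested. The gene called was Rbbp4, a histone-binding subunit of the MuvB core (74.5 to 105 CPM, log2 0.49 ± 0.09, adjusted p = 0.00259). Tfdp1, the dimer partner of E2F factors, passed the test (0.37 ± 0.09, adjusted p = 0.0246) but not the fold threshold. Rb1 differed by 0.37 ± 0.26 (adjusted p = 0.826). Tfdp2 (0.66 ± 0.19, adjusted p = 0.0768), Lin52 (0.90 ± 0.28, adjusted p = 0.118) and Lin9 (0.61 ± 0.24, adjusted p = 0.301) were not called. With GK against GK alone none of the 13 was called by edgeR. There 4 were higher with an unadjusted p under 0.05, as were 644 of the 12176 genes tested.

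Among 23 other regulators of G1 and S phase, of which 19 were tested, 3 were called higher and 1 lower with the GKRP vectors. Over all genes tested these shares were 1.50% and 0.411%. Cdc25a, the phosphatase that activates Cdk2, rose from 8.85 to 18.9 CPM (log2 1.08 ± 0.17, adjusted p = 0.000471). Cdkn1a (212 to 288 CPM, 0.44 ± 0.09, adjusted p = 0.00452) and Cdkn2c (0.919 to 2.43 CPM, 1.39 ± 0.34, adjusted p = 0.0257), which encode inhibitors of cyclin-dependent kinases, rose as well. Cdk6, a partner of cyclin D, fell from 92.4 to 51.6 CPM (-0.85 ± 0.18, adjusted p = 0.0116). Cdk4 (0.40 ± 0.16, adjusted p = 0.343) and Skp2 (1.05 ± 0.30, adjusted p = 0.0747) were not called, and Ccna2 did not pass the filter, with at most 1.69 CPM. With GK against GK alone Cdc25a, Cdkn2c and Cdk6 were called again and Cdkn1a was not (0.19 ± 0.08, adjusted p = 0.445). With the mouse as a term 7 of the 19 were called higher against untreated cells, and without mouse 1 or mouse 3 none was. Counts over all genes in these settings are given below.

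**Figure D4:**
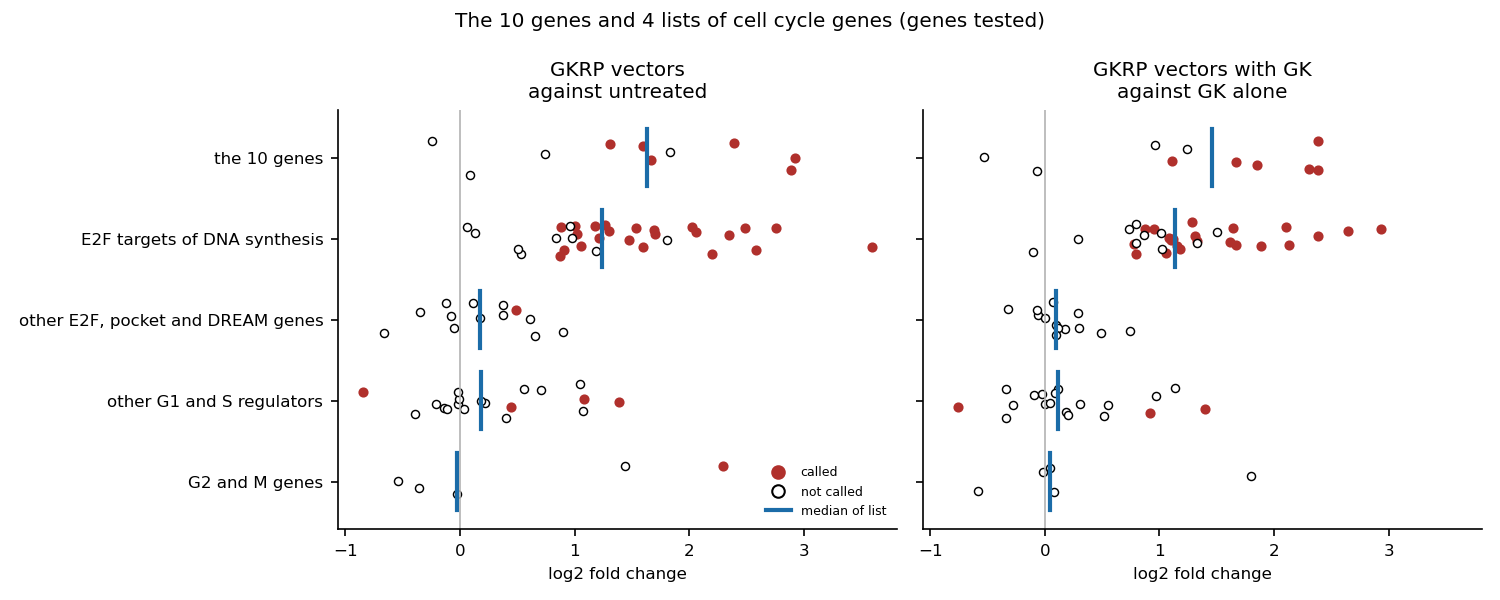
Log2 fold change of each gene tested, in 5 rows for the 10 genes and 4 lists of cell cycle genes, in 2 comparisons, with filled points for genes called by edgeR and a bar at the median of each row. The E2F targets of DNA synthesis lie around medians of 1.24 and 1.13, whereas the medians of the other lists are below 0.2.

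The genes most like the 10 over the 30 samples were found by the Pearson correlation of log2 CPM with the mean of the 10 standardised genes. They were Lig1 (r = 0.961), Donson (0.958), Hells (0.956), Wdr76 (0.955), Mcm2 (0.953), Uhrf1 (0.949), Slbp (0.942), Mcm5 (0.942), Tcf19 (0.937) and Dtl (0.937). Lig1 encodes the ligase that joins Okazaki fragments, and Mcm2 and Mcm5 are subunits of the replicative helicase. The genes least like them were Dusp11 (-0.882), Trp53inp2 (-0.861) and Clcn5 (-0.845). Of the 10 themselves, Ccne1 (0.954) and Cdk2 (0.931) were closest to their mean, and Ccnd1 (0.320) and E2f3 (0.155) were farthest. With values centred within each mouse Ccne2 (0.943), E2f8 (0.942) and E2f1 (0.936) were closest, and 6 of the 10 most alike genes were shared with the list above, as they were with Spearman's correlation. These samples share 3 mice and their controls, and the correlations are a description.

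Shares of transcripts within a gene were not used to choose the genes. Salmon gives expected counts per transcript, and 5 of the 10 genes had coding transcripts whose starts lay at least 100 bases apart. For E2f1 the upstream transcript E2f1-202 starts 172 bases before E2f1-201, at the 30-base site shown above, so that the pair of octamers lies upstream of one start and within the other transcript. In untreated cells E2f1-202 took 0% of the E2f1 counts in all 3 mice (0 of 116 expected counts, a floor of 3 counts allowing 2.58%, for counting error only). With a GKRP vector its share was 13.7%, 8.97% and 14.3% in mice 1, 2 and 3, a mean of 12.4 ± 2.94 (SD). With GK alone it was 0%, 25.0% and 0%. With GKRP and GK it was 30.1%, 28.9% and 25.9% (28.3 ± 2.17), above every mouse of the other groups in expected counts. In TPM it was 31.4%, 35.7% and 30.3%, and mouse 2 with GK alone, at 33.5%, lay among them. Any GKRP vector against none gave 20.6% against 3.80%, higher in 3 of 3 mice. A two-sided exact permutation test gave p = 0.1, the smallest p that 3 mice against 3 allow when unpaired. After Benjamini-Hochberg adjustment over 40 tests of such shares it was 0.4. The same 3 mice gave both groups, and these tests of shares did not use that pairing, so that their p is not one for paired mice. GKRP with GK against GKRP differed by 15.9 percentage points in 3 of 3 mice, again with an exact p of 0.1 (0.4 adjusted). The assignment of reads to transcripts that share most exons is an estimate.

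For E2f8 the upstream transcript E2f8-202 took 7.19 ± 12.5% with GKRP and 47.0 ± 19.4% with GKRP and GK, higher in 3 of 3 mice (exact permutation p = 0.1, 0.4 adjusted). In samples without a GKRP vector its share ran from 0% to 100% on few reads. In expected counts neither cyclin E gene showed a share beyond the spread of the mice. Ccne1-201 took 85.1% with any GKRP vector and 81.0% with none (exact permutation p = 0.7), while in TPM the share with GKRP was 26.8 percentage points above that of untreated cells in 3 of 3 mice (exact permutation p = 0.1, 0.4 adjusted). Ccne2-207 took 48.3% and 29.0% (exact permutation p = 0.4). The upstream transcript E2f3-201, whose start has the octamer shown above, took 15.6 ± 3.10% of the E2f3 counts with any GKRP vector and 9.68 ± 6.05% with none, higher in 3 of 3 mice (exact permutation p = 0.2, 0.615 adjusted). It was higher in 2 of 3 mice in TPM, and in 2 of 3 when GKRP was set against untreated cells, mouse 3 having 19.9% untreated and 7.17% with GKRP.

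**Figure D5:**
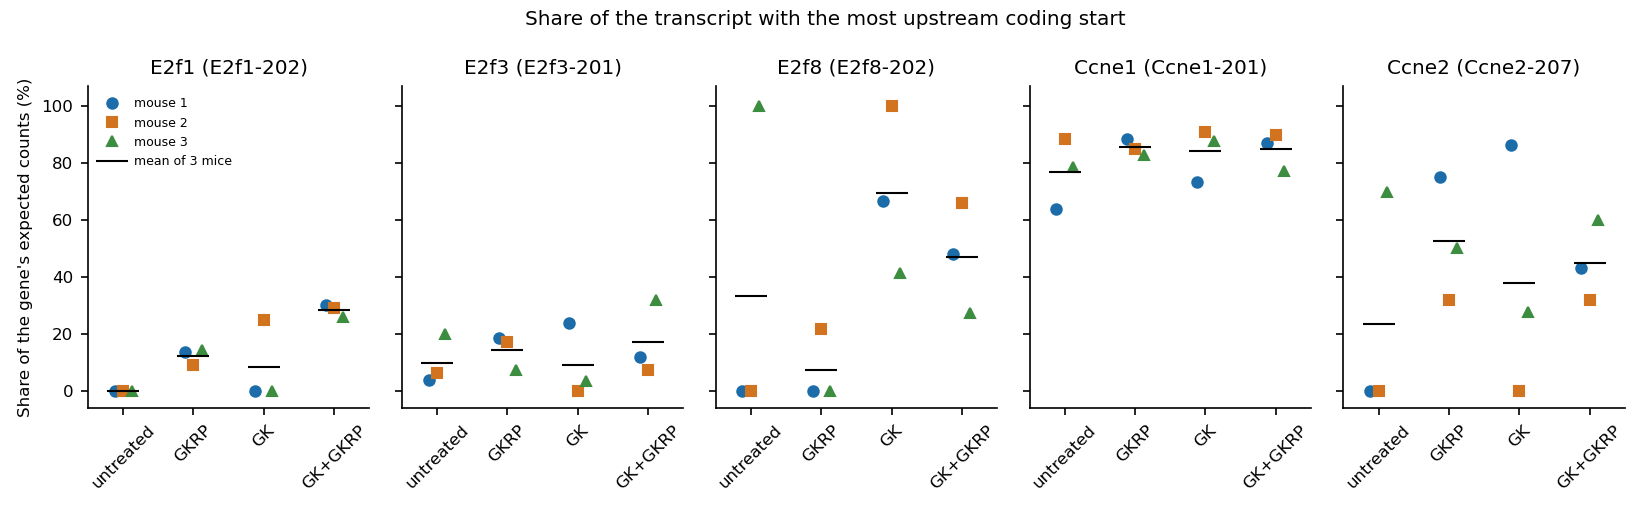
Share of the transcript with the most upstream coding start in the expected counts of its gene (%), in 4 groups and with 1 symbol per mouse and a bar at the mean of 3 mice. E2f1-202 lies at 0% in untreated cells, at 8.97 to 14.3% with GKRP, at 0 to 25.0% with GK alone and at 25.9 to 30.1% with GKRP and GK. E2f8-202 lies at 0 to 21.6% with GKRP and at 27.1 to 65.8% with GKRP and GK, whereas the groups of E2f3, Ccne1 and Ccne2 overlap.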

How the data were processed

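RNA from 36 hepatocyte cultures was sequenced by the authors, who quantified untrimmed reads with Salmon 1.4.0 against the Gencode M26 transcripts of GRCm39 after FastQC. The deposited files give for each of 139225 transcripts the expected counts (estimated reads, not normalized), the TPM scaled within the library by the authors and the effective length. Replicates were not pooled by the authors.

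The 10 genes, the gene lists and the alternatives were chosen with earlier results of these data known. Transcripts were matched to genes by Ensembl identifier in Gencode M39 (98.8% matched; the rest held 0.392% to 0.639% of reads and were left out), and expected counts were summed per gene and rounded. Where a mouse had a pair of cultures in 1 condition (6 pairs), their counts were farther apart than sampling allows (chi-square over its degrees of freedom 4.53 to 32.0), and the pair was summed into 1 replicate. Intervals and floors cover counting error only where so stated.

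In R 4.3.3 with edgeR 4.0.16 and limma 3.58.1, counts were filtered with filterByExpr, scaled with TMM (factors 0.901 to 1.093) and tested with glmQLFit and glmQLFTest in 1 model of 10 conditions, or of 6 groups for the comparison with 5 combined groups. Benjamini-Hochberg adjustment ran over 12176 genes. Calls needed an adjusted p below 0.05 and a ratio of 1.3 or more, or of 0.7 or less. The standard error is the size of the log2 difference divided by the square root of F. The test was also run on simulated counts drawn without an effect of the mouse, which does not check it for samples that share a mouse. Log2 CPM for correlations used a prior count of 2. Exact permutation tests, which were not paired by mouse, and the motif search used scipy 1.17.1, pandas 2.3.3 and numpy 2.4.6 under Python 3.11.15. The named genes are the 10, up to 5 genes per list with the smallest adjusted p, up to 3 textbook members per list, and the 10 most and 3 least alike; the targets of DNA synthesis named as not called were chosen after their values were seen. The planned protein sequences were not used here. A check of 1 vector and the start region of E2f8 are not reported here.

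Same-numbered samples come from the same mouse. Once condition means were removed, samples of 1 mouse had a mean correlation of 0.223 (82.2% of 135 pairs over 0.1) and samples of different mice one of -0.110. A mouse term in the model took edgeR's biological coefficient of variation from 0.323 to 0.231. It was an alternative, as were DESeq2 1.42.0, RLE scaling, other filters, 36 cultures as samples, an effective length offset, and each mouse left out in turn.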

Additional observations from a re-analysis of the deposited data

Results flagged for a closer look

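Of 22 groups of 6 cultures of the same condition, 2 held a culture set apart from the rest by Dixon's criterion. Chance alone would set apart about 1 group in 20 if the cultures were independent. They were not, as the 6 cultures were pairs from 3 mice and the groups were single genes in the same untreated or GK cultures. The lowest of the 6 cultures with GK alone had 16.2 CPM of E2f3. The highest of the 6 cultures with GK alone, which came from mouse 3, had 1462 CPM of Gckr. Without that culture the same 6 of the 10 genes were called higher with the GKRP vectors and GK than with GK alone. None of the 10 was then called with GK alone against untreated cells. The GK cultures are not among the groups compared in GKRP vectors against untreated cells, but the shared model uses them to estimate the spread. Without that culture the same 6 genes were called there too.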

How the results depend on the processing

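With the replicate block (the mouse as a term), 7 of the 10 genes were called higher with GKRP vectors than in untreated cells, E2f7 being added, and all genes called higher numbered 376 in place of 183. Over all genes, this count was 110 with no filter, 314 with 36 cultures as samples, 59 with the length offset, 531 with the block on 36 cultures (chosen after seeing the data) and 33 to 113 with 1 mouse left out. For GKRP with GK against GK alone, 133 became 354 with the block, 216 with DESeq2, 83 with no filter, 265 with 36 cultures, 11 with the length offset, 497 with the block on 36 cultures and 24 to 93 with 1 mouse left out. For GK alone against untreated cells, 1 became 42 with the block, 22 with DESeq2, 5 with no filter, 37 with 36 cultures, 0 with the length offset, 103 with the block on 36 cultures and 0 to 7 with 1 mouse left out. For GK alone against the 5 combined groups, 5 genes called lower became 84 with the block, 87 with DESeq2, 1 with no filter, 53 with 36 cultures, 0 with the length offset, 135 with the block on 36 cultures, 8 without the GK culture rich in Gckr and 0 to 3 with 1 mouse left out. Of the 10 genes, 0 became 3 with the block, 6 with DESeq2, 4 with 36 cultures and 6 with the block on 36 cultures.

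Of the 10 genes called higher with GKRP vectors, 6 became 3 to 6 with 1 mouse left out against untreated cells, and 2 with the length offset and 3 to 6 with 1 mouse left out against GK alone. With the length offset, hP and hL gave 1 each, mP and mL 2 each, GK+hP 1, and GK+hL, GK+mP and GK+mL 0. With mouse 1 or 3 left out, hP and hL gave 0 to 1, mP 2 to 3, mL 1, GK+hP, GK+hL and GK+mL 0 to 1, and GK+mP 2 to 3. The difference in the share of Ccne1-201 (4.11 percentage points) was -3.33 to 8.06 with 1 mouse left out, the reversal coming without mouse 1. The cause was not tested, beyond the fewer samples when a mouse was left out. Depth limits E2f2 and E2f7, with at most 18 and 16 reads per culture.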
